A study of Rattus norvegicus with 13 samples.

Results

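The transcripts described here are those of 8 genes that set the electrical behaviour of the ventricular wall: Cacna1c, Cacna2d1 and Cacnb2 of the L-type calcium channel, Cacna1g and Cacna1h of the T-type calcium channels, Hcn2 and Hcn4 of the pacemaker channels, and Gja1, which encodes connexin 43. They were chosen by name: every spot of the array that was not a control and whose gene name was one of the 8 was taken, which gave 10 probes of the 30367 on the array and 8 of its 26115 gene names. Cacna1c and Cacna1g had 2 probes each and the others 1. None of the 8 is a sodium channel gene, and some sodium channel beta subunits are given further down among the related genes.

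The tissue was left ventricle, and the rats were males at 45 weeks of age, either wild type (WT) or overexpressing ADBR3, which is the β3-adrenergic receptor, a catecholamine receptor (rat gene Adrb3). The 13 one-colour arrays held 6 hybridizations of 4 WT rats and 7 of 5 overexpressing rats. Hearts 1 and 2 of each group were repeat labelings of the RNA of 1 rat and were averaged. WT heart 5 and overexpressing heart 4 were repeat hybridizations whose partner array the labels do not name, and they were left out of the comparison, entering only the values within slide 4 and scan day 2 and an alternative fit. The sources used here give neither the strain nor the promoter or sequence of the introduced receptor. WT rats 1, 3, 4 and 6 and overexpressing rats 1, 3, 5, 6 and 7 are numbered by heart. The p-values measure the spread between these rats, except in the alternative fit with the repeat hybridizations added, which counts each of them as a further rat.

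In ventricular muscle the L-type calcium channel opens when the membrane depolarises, and the calcium it admits triggers release from the sarcoplasmic reticulum and so contraction. Its pore, encoded by Cacna1c, is brought to the membrane and tuned by the alpha2delta subunit (Cacna2d1) and a beta subunit (Cacnb2). Its current can be raised by adrenergic signalling through cAMP. Whether the β3-adrenergic receptor acts on this current in these hearts was not tested. T-type channels open at more negative potentials and are best known from pacemaker tissue and from the embryonic or stressed ventricle. HCN channels carry the hyperpolarisation-activated pacemaker current and bind cAMP directly. Connexin 43 builds the gap junctions of the intercalated disc, through which the impulse passes between working myocytes.

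The sequences below are what each value rests on, since a spot reports only the RNA that hybridizes to its 60-base probe. Bases 1 to 30 of each probe are shown 5′ to 3′ in lower case, and for Cacna1h bases 31 to 60, in capitals because all 30 of them also lie, on the opposite strand, in the probe of another gene. Positions of the whole probes are in rat build rn4, as the scanner files give them. The accessions of all 8 genes matched the same symbol in the RefSeq gene table. Whether a probe lies in coding sequence or in an untranslated region was not analysed here.
Cacna1c, chr4:154895974-154896033, minus strand: ctgtcccacgagatatgcaaaagcaatgca
Cacna1c second probe, chr4:154897419-154897478, minus strand: tgacgcctgcgatatgacaatagaggagat
Cacna2d1, chr4:15140270-15140329, minus strand: caatttatactcctttggctggtatctggc
Cacnb2, chr17:89076857-89076916, plus strand: gagccaaaggaagattattcacatgaacat
Cacna1g, chr10:83043933-83043992, minus strand: aagaaagacacgctgagtctctctggtttg
Cacna1g second probe, chr10:83044389-83044448, minus strand: aaggaccctccagagaccagaagcagctta
Cacna1h, chr10:14621473-14621532, minus strand: TATGTCATCCGTTTCTACAAATTCAGGTTA
Hcn2, chr7:11485814-11485873, minus strand: acgccatcatccaggagattgtcaaatatg
Hcn4, chr8:62667159-62667218, plus strand: ctcccttcttccttcaggtttaactgtgat
Gja1, chr20:35422026-35422085, plus strand: acaaaaacaaaactcatcacagatgattga

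The probes of Cacna1c start 1445 bases apart in the genome and those of Cacna1g 456 bases apart, so each pair reads a different stretch of the same gene. The Cacna1h probe shares a run of 31 bases, on the opposite strand, with the probe of Tpsg1, a mast cell tryptase gene, and in rn4 the 2 probes overlap by these 31 bases. The Tpsg1 probe rose well above background on 0 of the 13 arrays, and its level correlated with that of Cacna1h at r = 0.163 over the 9 rats. With the Tpsg1 probe at background, that correlation cannot tell whether the 2 probes share signal. This overlap was looked for after the values had been seen. For the other 9 probes the longest run shared with a probe of another gene was 13 to 18 bases.

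All 10 probes were well above background on all 6 WT and all 7 overexpressing arrays, so each of the 8 genes had a measured level in every rat. A level below is a log2 signal, as processed by the scanner software, set against the 75th percentile of all spots on that array, so that 0 is a signal as bright as that percentile and 1 unit is a doubling. Over the arrays, that percentile was a signal of 760.4 to 908.7, and the share of spots well above background ran from 55.2% to 67.8%. The lowest shares were those of WT hearts 2 and 6, at 55.2% and 58.7%, both on slide 1. The overexpressing arrays ran from 61.5% to 65.5%. Levels were compared between groups with limma, fitted on all 15367 genes that passed the filter, and p-values were adjusted over all of them with the Benjamini-Hochberg method. Of the 8 genes, 0 passed the adjusted threshold of 0.05, where 1 of the 15367 genes did (0.00651%), and of the 10 probes 0 did in the fit of every probe, where 0.00569% of all probes did. At an unadjusted limma p under 0.05 the count was 0 of 8, beside 9.44% of all genes tested, and in 0 of 8 were the groups apart without overlap, beside 3.52% of all genes. The 8 genes split into 4 higher and 4 lower in overexpressing rats, with a median difference of 0.036 on the log2 scale, while 46.7% of all genes were higher and their median difference was -0.0089. In bulk tissue, fewer cells of a type and less RNA per cell cannot be told apart.

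**Figure D1:**
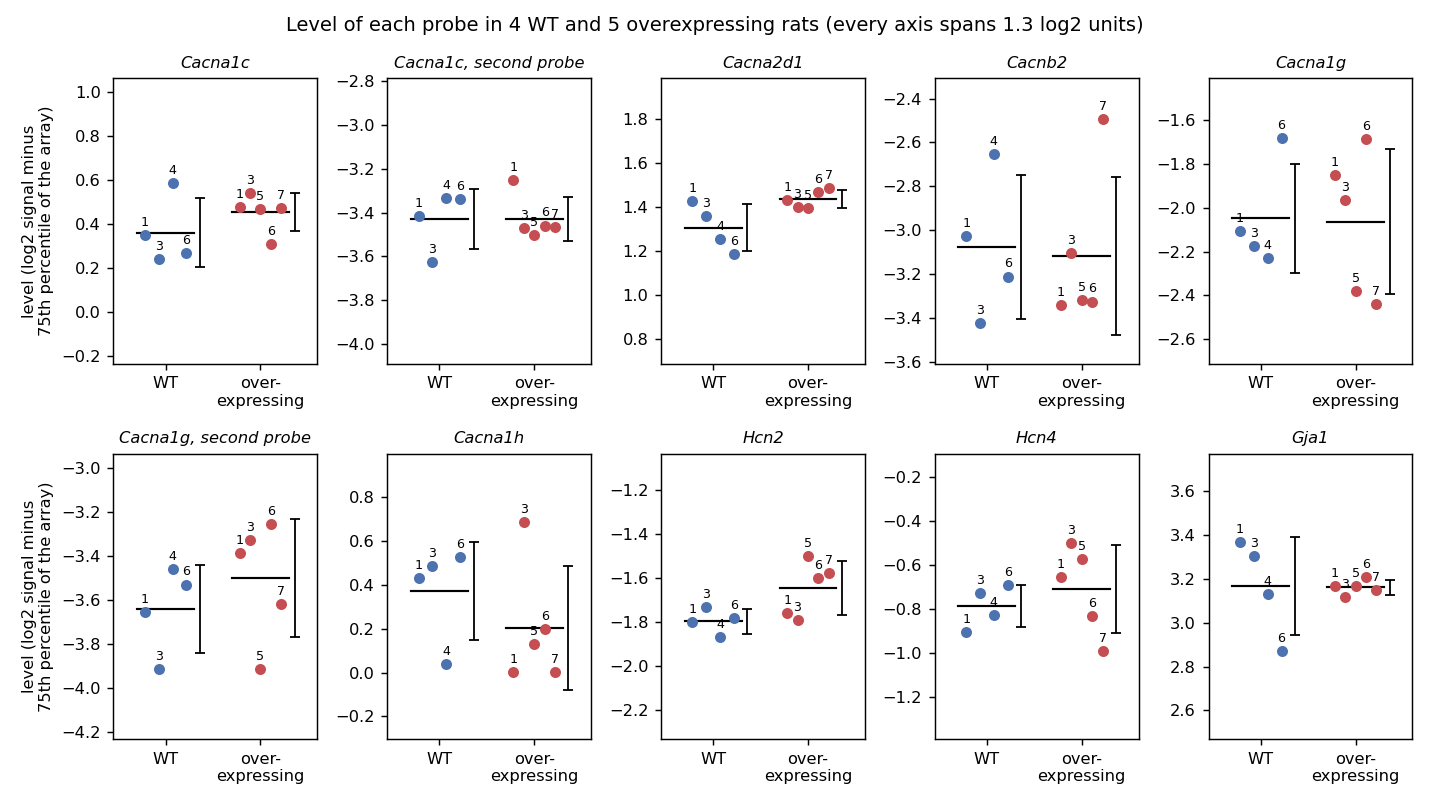
Level of each of the 10 probes (log2 signal minus the 75th percentile of the array, vertical axis) in 4 WT rats (blue) and 5 overexpressing rats (red), 1 point a rat with its heart number. Horizontal lines are group means and bars beside them 1 SD, and every axis spans 1.3 log2 units; the groups overlap in all 10 panels, and the 5 overexpressing Gja1 points lie between 3.12 and 3.21 while the 4 WT points run from 2.87 to 3.37.

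Among the L-type channel subunits, Cacna2d1 differed most between groups and Cacna1c less, and neither passed the adjusted threshold. The Cacna2d1 level was 1.43, 1.36, 1.26 and 1.18 in WT rats 1, 3, 4 and 6, and 1.43, 1.40, 1.40, 1.47 and 1.49 in overexpressing rats 1, 3, 5, 6 and 7. WT rat 1 lay inside the range of the overexpressing rats and the other 3 WT rats below it. The means were 1.31 ± 0.11 (SD, n = 4) and 1.44 ± 0.041 (SD, n = 5), a difference of 0.13 with a 95% interval of -0.0019 to 0.26, or 1.09-fold higher. The adjusted p of limma was 0.526, and an exact permutation test over all splits of the 9 rats, two-sided, gave p = 0.0317 before any adjustment, with 0.00794 the smallest p this design allows. That test was run on 10 probes in all, and this was the only one of the 10 with an unadjusted exact p under 0.05. The difference was 0.11, 0.23 and 0.087 within slides 1, 3 and 4 and 0.19 and 0.10 within the 2 scan days, higher in all 5. These batches, read from the file headers, hold few rats: slide 1 holds 2 WT rats and 1 overexpressing rat, slide 3 holds 1 of each, slide 4 sets WT heart 5, a repeat hybridization, against 3 overexpressing arrays, scan day 1 sets 1 WT rat against 3 overexpressing, and scan day 2 sets 4 against 4 with both repeat hybridizations counted. The slides and scan days share arrays, so the 5 values are not independent.

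Cacna1c, the pore of the L-type channel, was read by a probe with 10 spots on each array. Its level was 0.35, 0.24, 0.58 and 0.26 in the 4 WT rats in the order above, and 0.48, 0.54, 0.47, 0.31 and 0.47 in the 5 overexpressing rats. All 5 overexpressing rats lay within the WT range, which WT rat 4 alone carried to its upper end. The difference was 0.094 (95% interval -0.088 to 0.28, 1.07-fold, limma, adjusted p = 0.724). It was 0.16 within slide 1 but -0.11 and -0.075 within slides 3 and 4, and -0.083 and 0.092 within the scan days.

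The second, dimmer Cacna1c probe gave a level of -3.42, -3.63, -3.34 and -3.34 in WT rats and of -3.25, -3.47, -3.50, -3.46 and -3.46 in overexpressing rats. It differed by -0.0012 (95% interval -0.18 to 0.18, limma, adjusted p = 0.998 over all 17587 probes tested), a value whose sign turned to above 0 under median scaling, under quantile normalization, and under normexp, another background correction, with quantile normalization. The gap between the 2 probes of Cacna1c differed between groups by 0.095 (exact two-sided permutation test p = 0.333), and their levels correlated at r = 0.350 over the 9 rats, which share arrays and scaling. The interval of either probe leaves room for about the same range of change: 0.941-fold to 1.21-fold for the brighter and 0.883-fold to 1.13-fold for the dimmer.

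Cacnb2, the beta subunit that escorts the pore to the membrane, had the widest spread of the 8 genes. Its level was -3.03, -3.42, -2.65 and -3.21 in WT rats and -3.34, -3.11, -3.32, -3.33 and -2.49 in overexpressing rats. WT rat 4 and overexpressing rat 7 stood highest in their groups. In overexpressing rat 7 the 2 spots of the probe read -3.41 and -1.58, a disagreement larger than the range of the other 4 rats of that group. The difference was -0.039 (95% interval -0.51 to 0.43, limma, adjusted p = 0.968) and turned to above 0, at 0.0023 to 0.0060, under median scaling, quantile normalization and normexp with quantile normalization. Within slides it was -0.23, 0.16 and -0.10, and within scan days -0.32 and -0.089.

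The T-type genes differed by less than their spread between rats. The level of Cacna1h, the pore of the Cav3.2 channel, was 0.43, 0.49, 0.039 and 0.52 in WT rats and 0.0030, 0.69, 0.13, 0.20 and 0.0036 in overexpressing rats. WT rat 4 was low in its group and overexpressing rat 3 was the highest of all 9. The difference, -0.17 (95% interval -0.52 to 0.19, 1.12-fold lower, limma, adjusted p = 0.747), was the lowest of the 8. Within slides 1, 3 and 4 it was -0.17, -0.035 and 0.40, and within the scan days 0.091 and -0.021, so that the sign was not the same in all batches. With slide as a block it was 0.063 (limma, adjusted p = 0.999). That fit left out the repeat hybridizations, so only slides 1 and 3 held both groups in it, and it is not an average of the slide values above.

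Cacna1g, the pore of Cav3.1, gave a level of -2.11, -2.17, -2.23 and -1.68 in WT rats and of -1.85, -1.97, -2.38, -1.69 and -2.44 in overexpressing rats on its brighter probe. Rat 6 was the highest of each group. The difference was -0.017 (95% interval -0.42 to 0.39, limma, adjusted p = 0.982), and it turned to above 0 under median scaling (0.025) and quantile normalization (0.00090). In the authors' deposited values the gene was read by its second probe, at 0.077. The second Cacna1g probe gave -3.66, -3.92, -3.46 and -3.53 in WT rats and -3.39, -3.33, -3.91, -3.26 and -3.62 in overexpressing rats, with a difference of 0.14 (95% interval -0.19 to 0.47, limma, adjusted p = 0.782). The 2 probes correlated at r = 0.653 over the 9 rats, and the gap between them differed between groups by -0.16 (exact two-sided permutation test p = 0.302). Within slides 1, 3 and 4 the brighter probe differed by -0.13, -0.21 and 0.21 and the second by 0.11, -0.16 and 0.29.

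Hcn2, one of the pacemaker channels that bind cAMP and the main HCN form of ventricular muscle, had the highest difference of the 8 genes. Its level was -1.80, -1.73, -1.87 and -1.78 in WT rats and -1.76, -1.79, -1.50, -1.60 and -1.58 in overexpressing rats. Overexpressing rats 5, 6 and 7 stood above all WT rats, and rats 1 and 3 within the WT range. The means were -1.80 ± 0.057 (SD, n = 4) and -1.65 ± 0.12 (SD, n = 5), a difference of 0.15 with a 95% interval of -0.0082 to 0.31, or 1.11-fold higher. The adjusted p of limma was 0.529 and the exact two-sided permutation p 0.0873. The difference was 0.034, 0.29 and 0.067 on slides 1, 3 and 4 and 0.16 and 0.057 on the scan days, all above 0. With slide as a block it was 0.13 (limma, adjusted p = 0.989), with the repeat hybridizations added 0.086 (limma, adjusted p = 0.692), and over rats 1, 3 and 6 of each group alone 0.055 (limma, adjusted p = 0.862).

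Hcn4, the leading HCN form of the sinoatrial node, gave a level of -0.90, -0.73, -0.83 and -0.69 in WT rats and of -0.65, -0.50, -0.57, -0.83 and -0.99 in overexpressing rats. Overexpressing rats 1, 3 and 5 stood above all WT rats, rat 6 lay among them and rat 7 was the lowest of all 9. The difference was 0.078 (95% interval -0.16 to 0.31, 1.06-fold, limma, adjusted p = 0.826). Within slides 1, 3 and 4 it was 0.084, -0.16 and 0.21, and within scan days 1 and 2 it was 0.13 and 0.13. Rats 5 and 7, both among the 3 highest for Hcn2, stood apart for Hcn4 at -0.57 and -0.99. Over the 9 rats, taken as deviations from their group means, Hcn2 and Hcn4 correlated at r = -0.29.

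Gja1 had the smallest difference of the 8 genes and the most unequal spread. Its level was 3.37, 3.30, 3.13 and 2.87 in WT rats and 3.17, 3.12, 3.17, 3.21 and 3.15 in overexpressing rats. All 5 overexpressing rats lay within the WT range, and WT rat 6 was the lowest of all 9. The array of WT rat 6 also had a low share of spots well above background, 58.7%, whose part in this level was not tested. The means were 3.17 ± 0.22 (SD, n = 4) and 3.16 ± 0.034 (SD, n = 5), so the SD was larger in WT; the difference in spread was not tested. The difference in level was -0.0058 (95% interval -0.22 to 0.21, limma, adjusted p = 0.989), which leaves room for 0.859-fold to 1.15-fold. It turned to above 0 under median scaling (0.036) and under normexp with the 75th percentile (0.0016), and lay between 0.0048 and 0.073 within the slides and scan days.

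**Figure D2:**
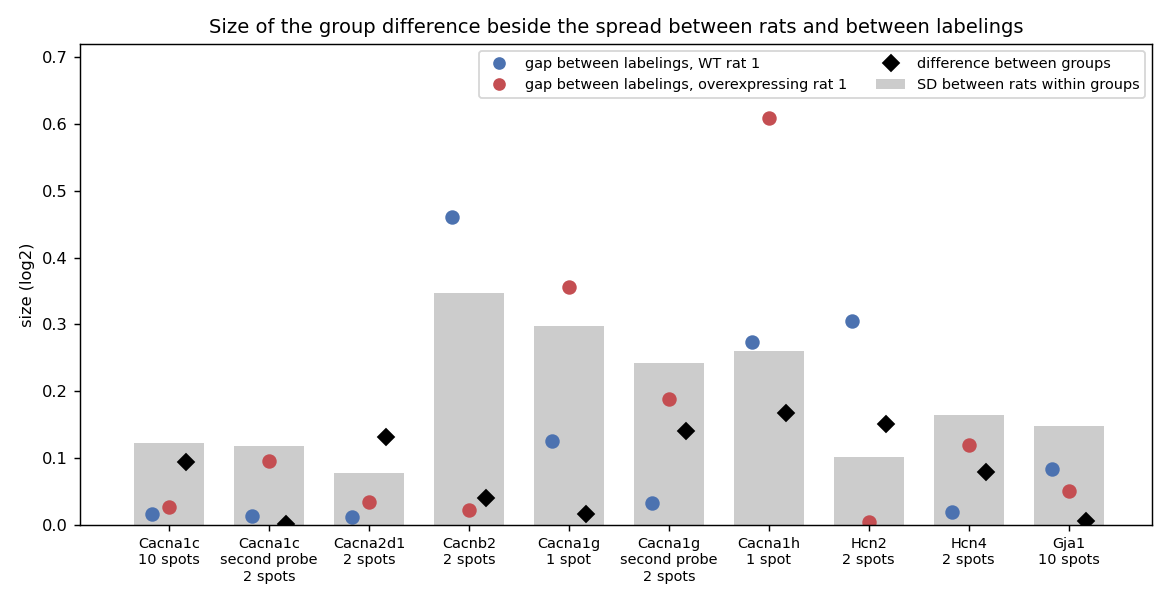
Size (absolute value, log2, vertical axis) of the difference between groups (black diamonds), of the gap between the repeat labelings of WT rat 1 (blue) and of overexpressing rat 1 (red), and of the SD between rats within groups (grey bars), for each of the 10 probes with its number of spots on an array. For Cacna2d1 and the brighter Cacna1c probe the diamond lies above both labeling gaps, whereas for Cacna1h a gap of 0.61 stands far above a difference of 0.17. The red gaps also span different slides and scan days.

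The repeat labelings of WT rat 1 and of overexpressing rat 1 show how far arrays of the same rat differed. Both arrays of WT rat 1 were on slide 1 and scan day 2. Those of overexpressing rat 1 were on slide 1, scan day 2 and on slide 5, scan day 1, so their gaps also hold slide and scan day. For Cacna1c the repeat labelings differed by -0.015 and 0.027 and for Gja1 by 0.084 and -0.051 (heart 2 minus heart 1), on probes with 10 spots whose median SD between spots was 0.058 and 0.051. Cacna2d1, with 2 spots, was as close at -0.012 and 0.034. Cacna1h, read by a single spot, differed by -0.27 in WT rat 1 and by -0.61 in overexpressing rat 1. Cacnb2 differed by -0.46 in WT rat 1, the brighter Cacna1g probe by 0.36 in overexpressing rat 1, and Hcn2 by -0.30 in WT rat 1. In 8 of the 10 probes the larger of these gaps exceeded the difference between groups, with Cacna2d1 and the brighter Cacna1c probe as the others. Each gap is between single arrays, while the group difference is between means of 4 and 5 rats. Cacna1h was read by 1 spot, and Cacnb2 at a dim signal of 75.4 to 187.6. The second Cacna1c probe was also dim, at 65.9 to 99.2, with gaps of 0.012 in WT rat 1 and -0.095 in overexpressing rat 1. The part of spot number and dim signal in these gaps was not tested.

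The SD between rats within groups ran from 0.077 for Cacna2d1 to 0.35 for Cacnb2, beside a median of 0.13 over all genes tested. Of all genes tested, 19.8% had a smaller SD than Cacna2d1, 34.8% than Hcn2, 45.4% than Cacna1c and 55.7% than Gja1. Cacnb2, Cacna1g and Cacna1h were more variable than 89.8%, 85.7% and 81.3% of them. The 95% intervals follow this order and were from 0.27 log2 units wide for Cacna2d1 to 0.94 for Cacnb2.

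Taken as deviations from the group means, the levels of the 8 genes formed 28 pairs over the 9 rats, given here as a description since the points share arrays and scaling. Cacna2d1 and Gja1 had the highest correlation, r = 0.90, and in both genes the level fell in the order of WT rats 1, 3, 4 and 6. Cacna1c and Cacnb2, pore and beta subunit of one channel, followed at 0.62, and Cacna1h and Hcn4 at 0.56. The lowest values were those of Hcn4 with Cacnb2 (-0.62) and with Cacna2d1 (-0.59). The 2 Cacnb2 spots disagreed in the highest rat of each group, with signals of 110.3 and 172.3 in WT rat 4 and 82.1 and 293.1 in overexpressing rat 7. The correlations with Cacnb2 were not computed without these rats.

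Among the 10483 other gene symbols compared, those whose level followed each of the 8 genes most closely over the 9 rats were the following, with Pearson r from 0.91 to 0.96. Zfp655 and Gatad2b followed Cacna1c, Map2k6 and Ift46 followed Cacna2d1, and Rassf8 and Gja10, itself a connexin, followed Cacnb2. Ncln and Pemt followed Cacna1g, and Paqr4 and Pabpn1 followed Cacna1h. Mknk2 and Adck1 followed Hcn2, Ptpdc1 and Dmwd followed Hcn4, and Svil and Fzd1 followed Gja1. This is a ranking over 9 rats with no test, and none of these 16 genes passed the adjusted threshold.

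Other genes of these channels and junctions were taken as 6 lists of 72 genes, of which 37 passed the filter on dim probes. None of the 37 passed the adjusted limma threshold, where 0.00651% of all genes did, and 2 of the 37 had an unadjusted limma p under 0.05, beside 9.44% of all genes: Dsc2 and Xirp1, which encode intercalated disc proteins. The list of other voltage-gated calcium channel subunits had 5 of 21 genes tested, 4 higher and 1 lower, with a median of 0.091. Cacnb3, a beta subunit, differed by 0.17 (95% interval -0.0094 to 0.36, limma, adjusted p = 0.529), Cacna1a by 0.10, Cacng6 by 0.091 and Cacnb1 by -0.063. The probes of Cacna1d, Cacna1s, Cacna2d3, Cacnb4 and Cacng7 were well above background in 0 of the 9 rats and that of Cacna2d2 in 1, so these genes have only a bound. Without the filter, which lets in these probes near background, 7 of the 21 were higher and 14 lower, with a median of -0.21. In that setting the median over all genes also moved, from -0.0089 to -0.071. The median over the 5 was 0.038 with slide as a block and from 0.027, without WT rat 3, to 0.15, without WT rat 1, when 1 rat was left out.

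Of the RGK and STAC families, which restrain or assist the L-type channel, 3 of 7 genes were tested. Rrad differed by 0.022, Rem1 by 0.23 (95% interval -0.11 to 0.57, limma, adjusted p = 0.636) and Stac by -0.051, while Gem and Stac3 were well above background in 0 of the 9 rats. Hcn3 differed by 0.026 (limma, adjusted p = 0.964), and turned to -0.063 under normexp with the 75th percentile, -0.0099 with the authors' deposited values, -0.21 with slide and -0.012 with scan day as a block, and -0.12 without WT rat 3. Pex5l, an HCN partner, was well above background in 1 of the 9 rats.

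Of the 22 other connexins and pannexins, 9 were tested and all 9 had a difference above 0, with a median of 0.13. None passed the adjusted threshold, and none had an unadjusted limma p under 0.05. Gja5, a connexin of atrial and conduction tissue and of endothelium, differed by 0.12 (95% interval -0.072 to 0.31), Gja4, an endothelial connexin, by 0.056, Gjc1, a connexin of the conduction system, by 0.026 and Panx1 by 0.016. The count of 9 of 9 became 6 of 9 under normexp with the 75th percentile, 7 of 9 with the authors' deposited values, 6 of 9 with slide as a block, 7 of 9 with the repeat hybridizations added, and 10 of 22 without the filter on dim probes. The last count takes in 13 genes whose probes failed the filter, and in that setting the median over all genes was -0.071.

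The 17 intercalated disc genes were all tested, with 10 higher and 7 lower and a median of 0.076. The median was -0.013, with 8 higher and 9 lower, under normexp with the 75th percentile, and 0.12, with 13 higher and 4 lower, under median scaling. With 1 rat left out it ran from 0.013, without WT rat 1, and 0.017, without WT rat 6, to 0.063, without WT rat 3. Dsc2, a desmosomal cadherin, had the largest difference of the 37 genes but for Scn3b, at 0.39 (95% interval 0.13 to 0.65, limma, adjusted p = 0.376). It was picked out for its value. Cdh2, N-cadherin, differed by -0.010, Jup, plakoglobin, by 0.12, Dsp by -0.15, Pkp2 by -0.075, Ctnna3 by -0.069 and Tjp1, the ZO-1 protein that binds connexin 43, by -0.032. Of the sodium channel beta subunits, Scn3b differed by 0.40 (95% interval -0.098 to 0.89, limma, adjusted p = 0.586) and Scn4b by 0.087. Scn2b was well above background in 0 of the 9 rats.

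**Figure D3:**
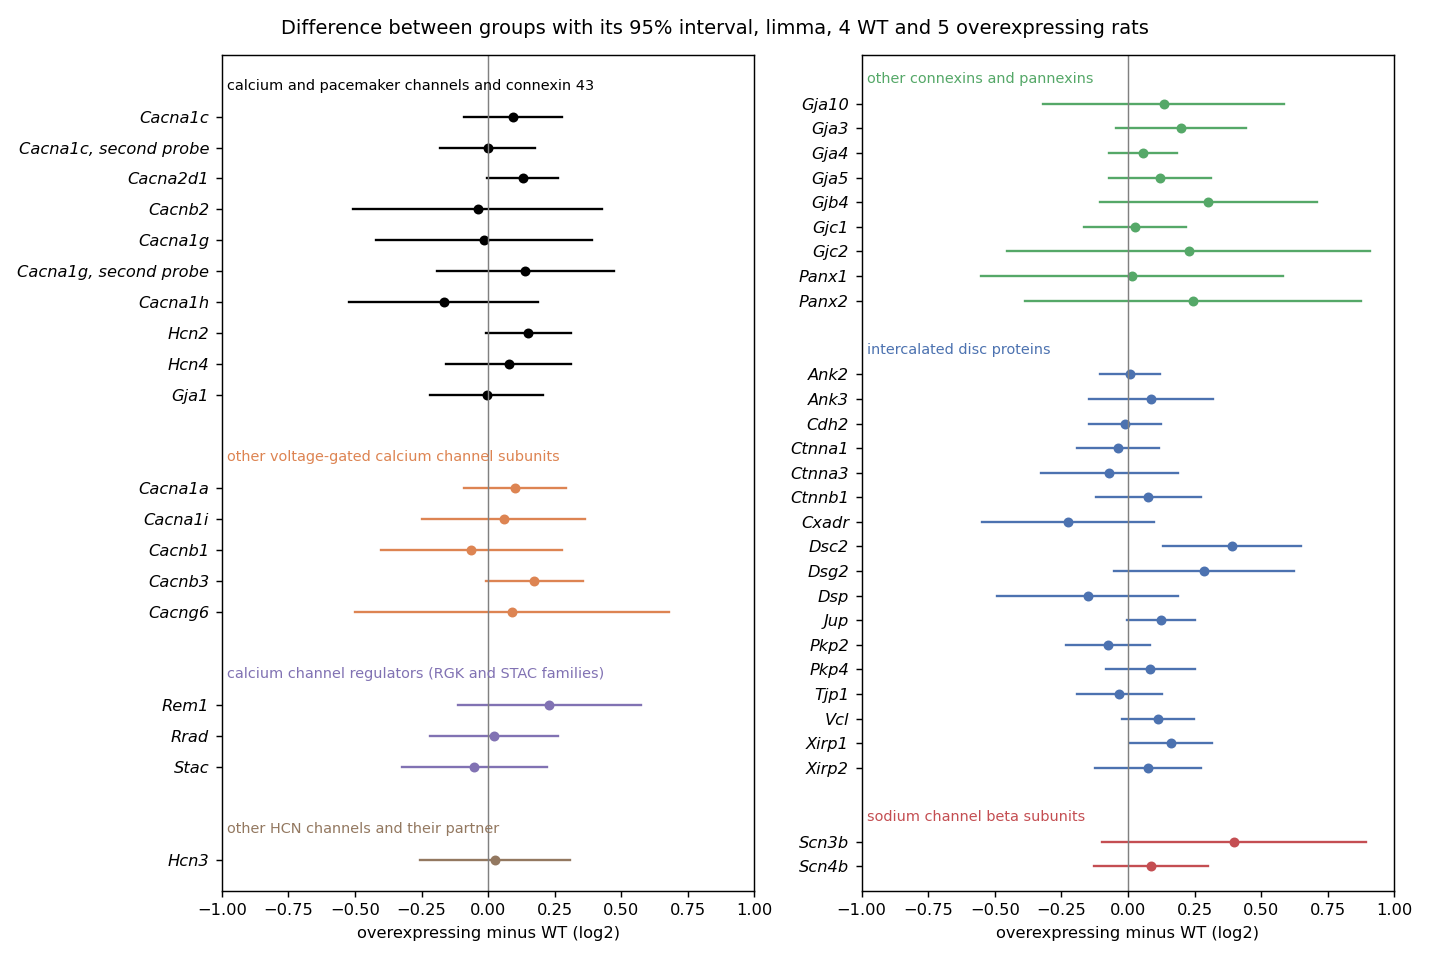
Difference between overexpressing and WT rats (log2, horizontal axis) with its 95% interval from limma, for the 10 probes of the 8 genes (from the fit of every probe) and for the 37 tested genes of 6 related lists (from the fit of 1 probe a gene). The intervals of all 10 probes include 0, and those of Dsc2 and Xirp1 lie above it.

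The tissue was checked with marker genes. All 8 cardiomyocyte markers were tested, and their mean level was 6.53 to 6.78 in WT and 6.65 to 6.73 in overexpressing rats. Of these 8, 3 were higher and 5 lower in overexpressing rats, and the difference of their mean was 0.0017. Mybpc3, a sarcomere protein gene, was the 1 of the 8 apart without overlap between groups, beside 3.52% of all genes, with a difference of 0.18 (limma, adjusted p = 0.393). The mean of the 4 atrial markers was 4.03 to 5.16 in WT and 4.03 to 6.23 in overexpressing rats, with the highest value in overexpressing rat 6. Of the 6 conduction and pacemaker markers 3 were tested. Tbx3 differed by -0.32 (limma, adjusted p = 0.497), Irx3 by -0.19 (limma, adjusted p = 0.795) and Tbx18 by 0.062 (limma, adjusted p = 0.926). Shox2 and Isl1 were well above background on 0 of the 13 arrays, and Cntn2 in 3 of the 9 rats. The part of atrial or conduction tissue in the Hcn4 and Gja1 values was not tested. The rat Adrb3 probe rose well above background on 1 of the 7 overexpressing arrays and on 0 of the 6 WT arrays, and it could not check the labels, since the introduced sequence is not known from them.

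**Figure D4:**
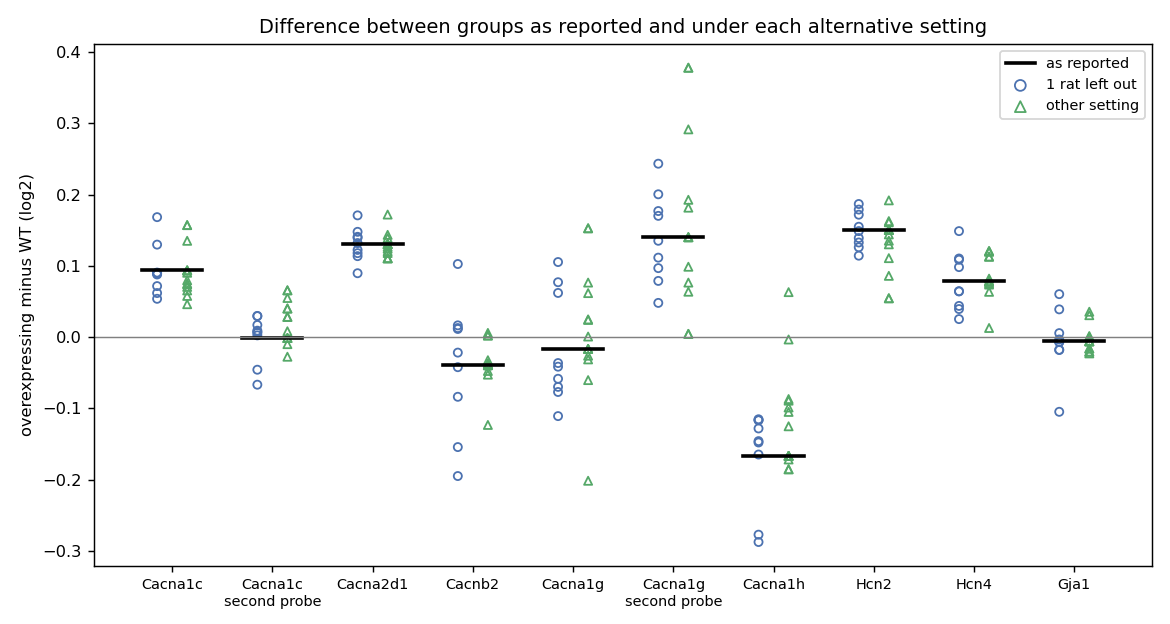
Difference between groups (log2, vertical axis) for each of the 10 probes as reported (black line), with each of the 9 rats left out in turn (blue circles) and under the other alternative settings (green triangles). Cacna2d1, Hcn2, Hcn4 and the brighter Cacna1c probe stay above 0 at every point, with Cacna2d1 between 0.090 and 0.17, while Gja1, Cacnb2 and the brighter Cacna1g probe have points on both sides of 0.

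In the plot of the alternatives, the reported differences are set beside 23 other settings, or 22 for second probes. The differences of Cacna1c, Cacna2d1, Hcn2 and Hcn4 were above 0 in all 23. They ranged from 0.090 to 0.17 for Cacna2d1, from 0.055 to 0.19 for Hcn2, from 0.046 to 0.17 for Cacna1c and from 0.013 to 0.15 for Hcn4. In the same settings the lowest adjusted limma p was 0.347 for Cacna2d1, 0.471 for Hcn2, 0.425 for Cacna1c and 0.610 for Hcn4. Those of Cacna2d1 and Hcn4 came from the fit that counted each repeat hybridization as a further rat. The second Cacna1g probe was also above 0 in all 22 of its settings, from 0.0045 to 0.38 (lowest adjusted limma p 0.518).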

How the data were processed

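The values deposited by the authors are the spot intensity of 13 one-colour arrays of design 028279, per the file headers, which name Agilent Feature Extraction 10.7.1.1. The series table deposited by the authors, on a natural log scale, was used as an alternative. That scale was read from its match to the scanner values (r of 0.9988 to 0.9999), and its scaling between arrays is unknown here.

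From the processed signals, log2 values less the 75th percentile of their array were computed, and spots of a probe were averaged. The filter kept probes that were well above background in 4 or more of the 9 rats. A gene was represented by its brightest probe, with every probe also fitted. The group difference came from limma 3.58.1, lmFit and eBayes (R 4.3.3, the data.table package, version 1.17.8; plots with matplotlib 3.10.9), with group as the only term, and the fit was tested on simulated data. The genes, the related lists and the markers were chosen with earlier results of these data known. Named were all 8 genes, preset genes of the lists, list genes without overlap, and the 2 symbols nearest to each of the 8. Some genes of the related lists are not reported here.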

Additional observations from a re-analysis of the deposited data

Results flagged for a closer look

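In 3 of the 20 groups of rats, 2 for each of the 10 probes, 1 rat lay far from the others by Dixon's test at its 95% critical value, where chance gives about 1 in 20. The second Cacna1c probe was highest in overexpressing rat 1, at -3.25 against -3.46 in the next rat, while the brighter Cacna1c probe read 0.48 in that rat, inside the range of its group. Cacna1h was highest in overexpressing rat 3, at 0.69 against 0.20 in the next rat, on a probe with 1 spot. Cacnb2 was highest in overexpressing rat 7, at -2.49 against -3.11 in the next rat, and there the signals of its 2 spots were 82.1 and 293.1.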

How the results depend on the processing

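Of the 8 genes, 0 were called under every alternative run. The fit with slide as a block used only the arrays of the 9 rats, so slides 1 and 3 alone held both groups and little of the comparison was left. The fit with the repeat hybridizations added counted each of them as a further rat. The number of genes called over the array was 2 under both forms of normexp and with the authors' deposited values, 6 with the repeat hybridizations added, 8 with a trended and robust variance, and 0 with slide as a block; with 1 rat left out it ran from 0 to 12, the 12 arose without overexpressing rat 3, and 0 when WT rat 3, WT rat 4, WT rat 6, overexpressing rat 6 or overexpressing rat 7 was left out. The second Cacna1c probe turned to 0.040 under normexp with quantile normalization and under median scaling, 0.055 under quantile normalization, 0.028 with the authors' values, 0.029 with slide and 0.0083 with scan day as a block. The brighter Cacna1g probe turned to 0.025 under median scaling, 0.00090 under quantile normalization and 0.024 with the repeat hybridizations added. The mean of both Cacna1g probes gave 0.062, and the authors' values, where the gene was read by its second probe, gave 0.077. Cacna1h turned to 0.063 with slide as a block. Cacnb2 turned to 0.0024 under normexp with quantile normalization, 0.0023 under median scaling and 0.0060 under quantile normalization. Gja1 turned to 0.0016 under normexp with the 75th percentile, 0.036 under median scaling, 0.031 with slide and 3.9e-05 with scan day as a block. With 1 rat left out, the values ran from -0.067 to 0.030 for the second Cacna1c probe, from -0.11 to 0.11 for Cacna1g, from -0.19 to 0.10 for Cacnb2 and from -0.10 to 0.060 for Gja1. The cause of these turns was not tested. Rats numbered 1, 3 and 6 exist in both groups, but the labels do not say that a number pairs them, and their deviations correlated at 0.11, 0.035 and 0.12, although each of these 6 rats correlated best with its own number. With the heart number as a replicate block on these rats, and likewise without the block, 0 genes were called, and the differences of the second Cacna1c probe and of Cacna1g were 0.066 and 0.15.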

Other observations

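The repeat hybridizations, which were left out of the comparison of the 9 rats, gave the following levels. WT heart 5 read 0.49 for Cacna1c, 1.34 for Cacna2d1, -3.18 for Cacnb2, -0.069 for Cacna1h, -1.77 for Hcn2, -0.86 for Hcn4 and 3.19 for Gja1. Its Cacna1h level was below that of all 4 WT rats. Overexpressing heart 4 read 0.47 for Cacna1c, 1.42 for Cacna2d1, -3.20 for Cacnb2, 0.66 for Cacna1h, -2.00 for Hcn2, -0.54 for Hcn4 and 3.23 for Gja1. Its Hcn2 level was below that of all 9 rats. On that array the 2 spots of the second Cacna1g probe read -3.64 and -1.14.

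Cacna1i, the third gene of the T-type pore family and known mainly from brain, was well above background on all 13 arrays, a gene picked out after its values were seen. The brighter of its 2 probes, with 1 spot, gave a level of 1.34 ± 0.29 (SD, n = 4 WT rats) against 1.40 ± 0.15 (SD, n = 5 overexpressing rats), a difference of 0.059 (limma, adjusted p = 0.913). The other probe differed by 0.0096. Runs shared with probes of other genes were not looked for in Cacna1i.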
